A study of Mus musculus with 64 samples.

Results

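Cultured fat cells treated with the inflammatory cytokine TNF and then with ASA and TGZ were set against cells of a vehicle group. The members are the arrays whose titles name TNF+ASA+TGZ, here called the combination (21 arrays), and those whose titles name vehicle (22 arrays), 43 of the 64 arrays of the series. Every feature of the deposited table, 6963 in all, was compared. The remaining 21 arrays, titled TNF, place the combination between vehicle and TNF and share in the estimate of the spread behind every test. The cells were 3T3-L1 adipocytes, a mouse fibroblast line that is differentiated into fat cells in the dish, used between days 8 and 12 of differentiation. Sample RNA carried Cy5 and was hybridised on a spotted array beside Cy3-labelled RNA pooled from untreated differentiated 3T3-L1 cells. In all 3 groups the source text lists TNF at 3 ng/ml for 48 h. The last 24 h followed in medium with 0.2% BSA (vehicle), with TNF at 3 ng/ml (TNF), or with 5 mM ASA and 10 µM TGZ (combination). The titles and the series design call the first group vehicle, so the labels do not settle whether those cells had met TNF. Nor do they say whether TNF stayed in the medium beside ASA and TGZ. If vehicle cells had received TNF, every distance from vehicle below is a distance from cells after its withdrawal. The model is a single cell line in culture, and all cultures derive from it.

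TNF is a cytokine that signals through NF-κB and stress kinases, and long exposure makes cultured adipocytes less responsive to insulin. ASA was read as acetylsalicylic acid (aspirin), which inhibits cyclooxygenases and, at high concentrations, the kinase that activates NF-κB. TGZ was read as troglitazone, a thiazolidinedione that activates PPARγ, the nuclear receptor that drives fat cell differentiation, and that raises insulin sensitivity. The comparison asks how close cells given both agents after TNF came to vehicle cells and where they moved beyond them.

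Features carry plate and well identifiers, and none (0 of 6963) matched the gene table used here. The files do not pair them with genes, so no gene is named, and the fat cell identity of the cultures could not be checked against marker genes. Values are log ratios, and the sources used here give neither their base nor their background correction or normalization; they are called log units below, and base 2 was assumed for any fold. The dyes make sample over pool the likely direction. The lowest correlation between arrays over all features was -0.707, and all 33 of 2016 pairs with r under -0.3 held a vehicle array. The vehicle values appear to have been centred feature by feature. This leaves differences between groups untouched only if the same offset was taken from every group, which was not tested. The SD over the features of an array was 0.600 for vehicle array 6 and 0.593 for vehicle array 17, against a vehicle median of 0.218. Combination arrays ranged from 0.367 to 0.626 with a median of 0.441. Combination arrays 4, 7 and 10 also stood apart, as described below. Several counts that rest on these arrays are given with and without them. Other results below were read with all arrays only.

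The combination remained far from vehicle. Of the 6963 features, 4232 (60.8%) differed between the combination and vehicle at an adjusted p under 0.05, 2008 higher (28.8%) and 2224 lower (31.9%). The test was limma with Benjamini-Hochberg adjustment over all features, and with the 43 vehicle and combination arrays alone it called 4111. Higher features rose by a median of 0.34 log units and lower features had a median difference of -0.29. Middle quartiles ran from 0.25 to 0.44 among the higher and from -0.40 to -0.22 among the lower, so the bulk of the calls were small shifts. Calls of at least 0.5 log units numbered 378 higher and 339 lower (10.3% of all features together), and those of at least 1 numbered 76 and 39 (1.65%). Beyond 2 log units there were 4 higher and 0 lower features. The 95% interval of the difference lay wholly beyond a 1.2-fold difference, 0.26 log units, for 1025 features. It lay wholly within 1.2-fold for 1758 features (25.2%). The rest had intervals that crossed that size. Over all features the median interval was ±0.15 log units. The balance of directions depended on scaling: higher features made up 47.4% of the calls as deposited, 53.2% with each array centred on its median, 57.2% with a common MAD and 41.8% with well-row means removed.

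**Figure D1:**
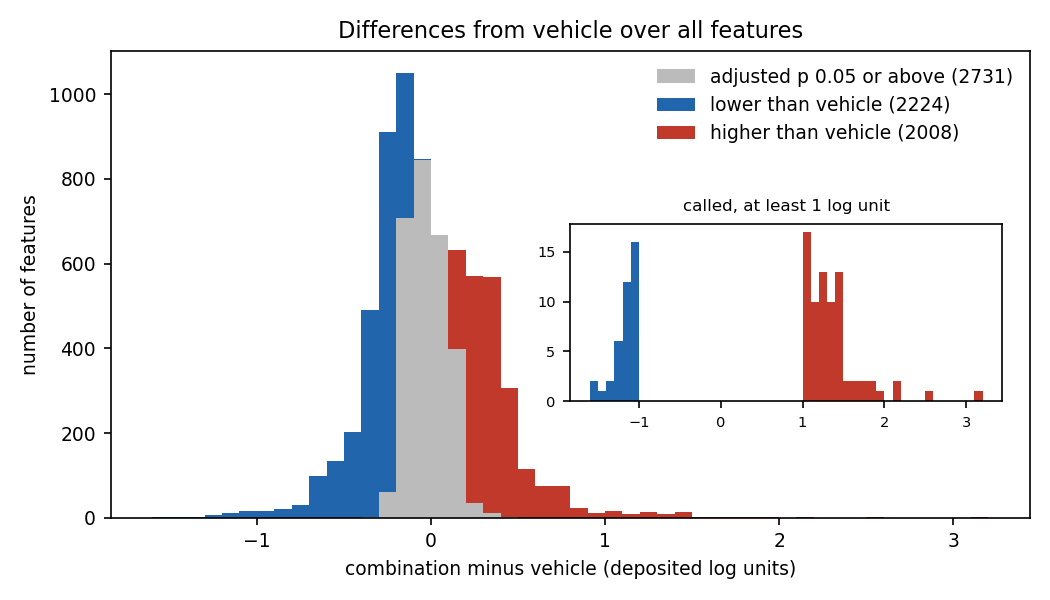
Histogram of the difference between combination and vehicle means in deposited log units (x axis) against the number of features (y axis), in bins of 0.1, with features coloured by call. The inset shows the called features that differ by at least 1: there are 76 higher and 39 lower, and the upper tail reaches 3.10 while the lower ends at -1.53.

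Non-overlapping groups were rare. All 21 combination arrays lay above all 22 vehicle arrays for 38 features (0.546%), and below all of them for 23 (0.33%), 61 in all (0.876%). Without vehicle arrays 6 and 17 the numbers were 44 (0.632%) and 36 (0.517%). For the TNF arrays against the same vehicle arrays, 50 features lay wholly above (0.718%) and 8 wholly below (0.115%).

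The features named here were picked for the largest differences in these arrays, so their p-values describe them and are not independent evidence. MSK10c19 had the largest difference. Its vehicle arrays ran from -0.97 to 1.25 with a median of 0.125, and its combination arrays from 2.04 to 4.16 with a median of 3.32. The groups did not overlap, and every combination array stood above the highest vehicle array. The means were 0.0909 ± 0.420 (SD, n = 22) and 3.19 ± 0.477 (SD, n = 21), so the combination was higher by 3.10 (SE 0.176, limma adjusted p = 3.6e-24), or 8.58-fold at base 2.

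MSK10k11, from the same plate, ran from -0.74 to 1.27 (median -0.04) in vehicle and from 1.18 to 3.56 (median 2.69) in the combination. A single combination array fell inside the vehicle range and 20 of 21 lay above it. The combination was higher by 2.55 (SE 0.159, limma adjusted p = 3.71e-22), 5.85-fold at base 2. Over the 64 arrays, with the means of each group and part of the replicate numbers removed, MSK10k11 and MSK10c19 deviated together with r = 0.572, the highest r among the 28 pairs of named features. Both went further out in the combination than in TNF, where the differences from vehicle were 2.35 and 1.65. The combination exceeded TNF by 0.75 for MSK10c19 (limma adjusted p = 0.00077) and by 0.90 for MSK10k11 (limma adjusted p = 1.11e-05). For MSK10c19, TNF array 4 stood at -0.66, inside the vehicle range, and the other TNF arrays ran from 1.56 to 3.48. That array lowers the TNF mean, and the difference from TNF without it was not computed.

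The lower end was led by MSK13d21, whose vehicle arrays spread from -1.15 to 1.34 (median 0.14) and whose combination arrays ran from -2.15 to -0.93 (median -1.73). The ranges overlapped, with 15 of 21 combination arrays below the lowest vehicle array. Combination minus vehicle was -1.53 (SE 0.161, limma adjusted p = 2.24e-12), beside -1.25 in TNF. Combination and TNF differed by -0.28, which did not pass the test (limma adjusted p = 0.241).

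MSK06b9 separated the 3 groups in steps. Its median was 0.065 in vehicle (range -0.76 to 0.53), -0.55 in TNF (range -1.41 to -0.07) and -1.45 in the combination (range -2.15 to -0.71). Of the 21 combination arrays, 20 lay below the lowest vehicle array. That lowest value belonged to vehicle array 6. The combination differed from vehicle by -1.51 (SE 0.0991, limma adjusted p = 5.85e-21) and from TNF by -0.89 (limma adjusted p = 1.07e-10).

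**Figure D2:**
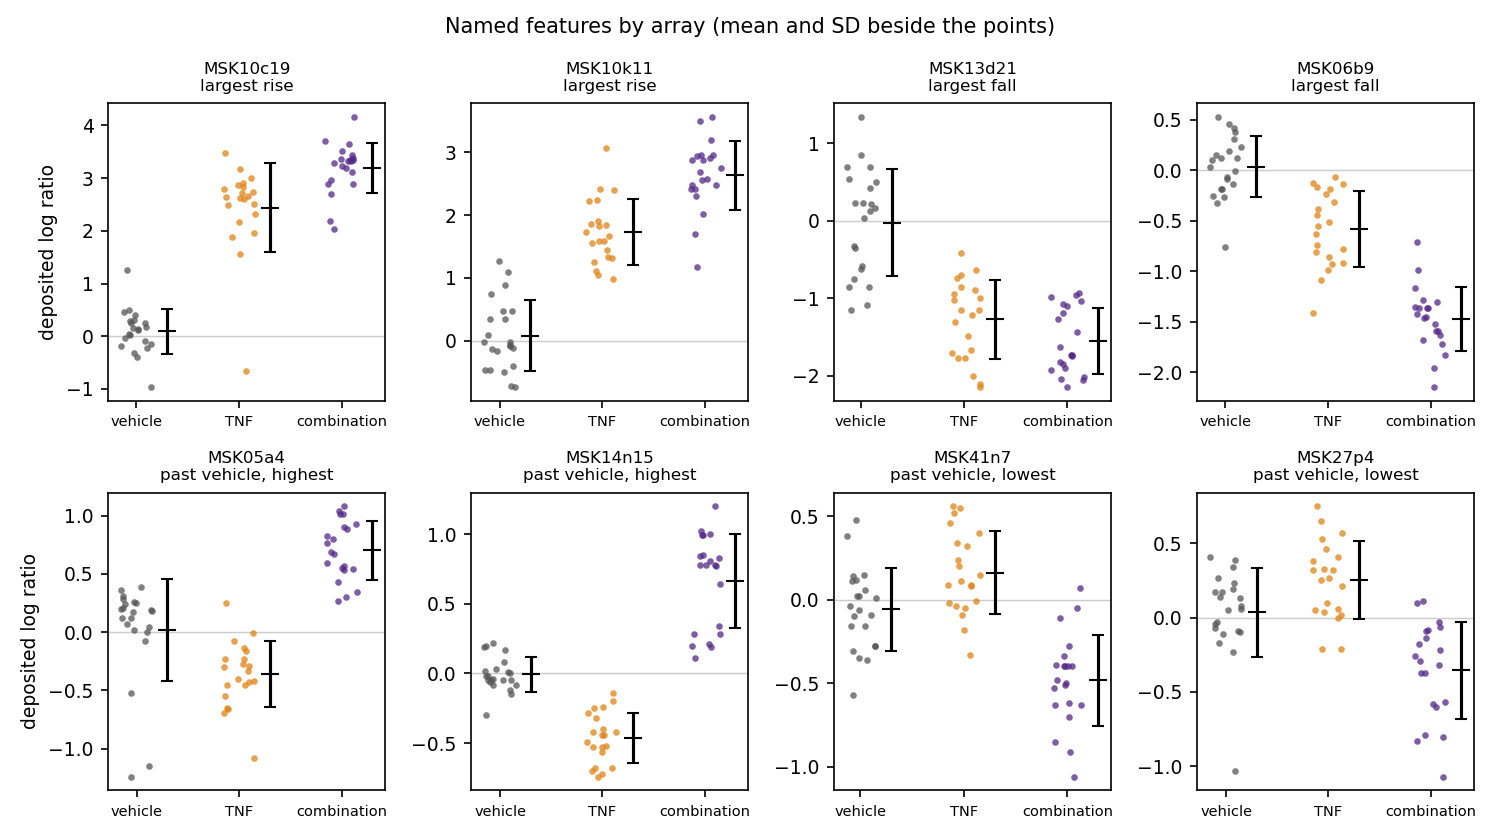
Deposited log ratio (y axis) of the 8 named features in each vehicle, TNF and combination array (points), with the group mean and SD beside them. In the upper row the combination is displaced to the TNF side of vehicle, and in the lower row TNF and combination lie on opposite sides of the vehicle mean.

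The distance between groups was measured in a way that enters no array on both sides, because means that share arrays share noise. The replicate numbers were divided into 1 to 11 and 12 upwards, a division found earlier by looking at these data. Differences between these parts within a group are not given here. Differences from vehicle in one of these parts were multiplied, feature by feature, with those in the other, and averaged over the 6963 features. The root of this average was 0.335 log units between combination and vehicle and 0.316 between TNF and vehicle. Between combination and TNF it was 0.197. Which of the first distances is larger turned with the scaling: they were 0.2495 and 0.263 when arrays were quantile normalized and 0.270 and 0.268 when scaled to one MAD. On the line from vehicle (0) to TNF (1), the mean combination profile lay at 0.866. It was 0.868 with the combination read in numbers 1 to 11 along the direction of 12 upwards, and 0.864 the other way round. Each of these uses both parts, with a shared divisor, so they are not separate estimates. The component of the combination away from that line had a size of 0.192 log units. Over the arrays left out in turn the position ran from 0.846 to 0.882. It was 0.776 when arrays were scaled to one MAD and 0.733 when they were quantile normalized, settings that give all arrays the same spread. These are descriptions without a test.

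Each array was then placed by the directions of the other part. Vehicle arrays lay between -0.529 and 0.157 on the line to TNF, where the lowest was array 6 and the next was -0.113. TNF arrays lay between 0.545 and 1.36 with a median of 1.03, and combination arrays between 0.581 and 1.22 with a median of 0.879. All 21 combination arrays exceeded every vehicle array, and 0 of them lay under the lowest TNF array. A position over 1 was seen for 4 combination and 11 TNF arrays. On the direction that belongs to the combination alone, scaled so that the combination mean is near 1, 18 combination arrays lay between 0.780 and 2.13. The highest TNF or vehicle array stood at 0.530. Combination arrays 10, 4 and 7 stood at 0.242, 0.287 and 0.355, inside the range of the TNF arrays.

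**Figure D3:**
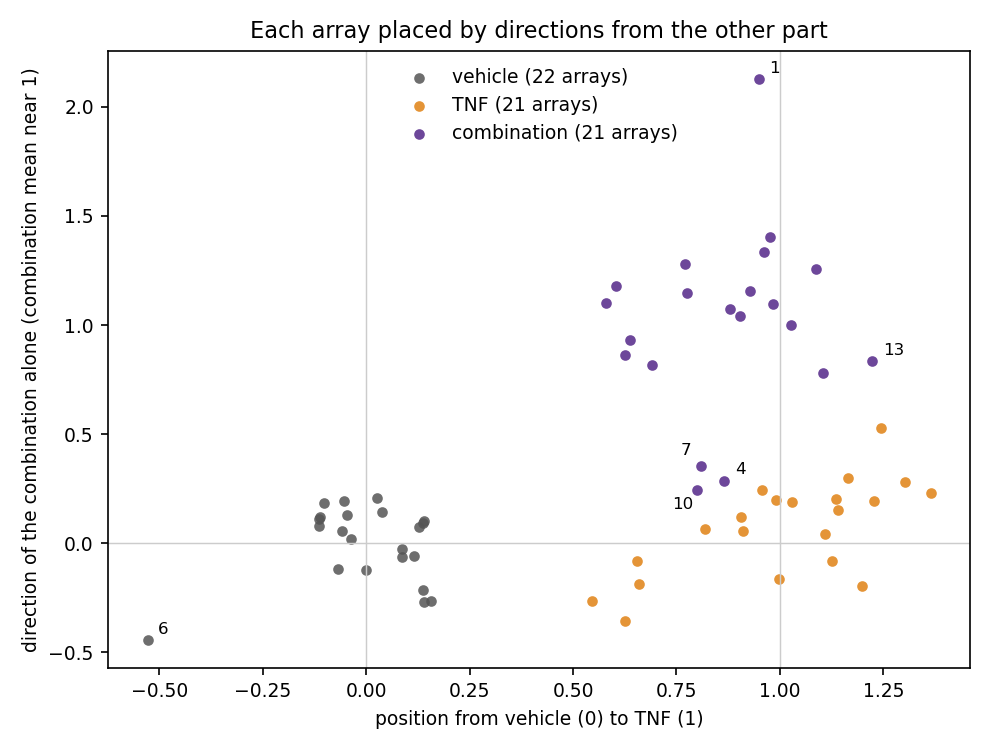
Each of the 64 arrays placed on the line from vehicle to TNF (x axis, 0 is the vehicle mean and 1 the TNF mean) and on the direction of the combination alone (y axis, combination mean near 1), both taken from the other part of the replicate numbers; numbers mark the arrays named in the text. Combination arrays share the TNF range on the x axis, and 18 of 21 lie above every other array on the y axis.

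Features that differed from vehicle in the combination were sorted by where TNF stood. The comparisons share the vehicle arrays, whose noise favours the same direction in both, so the counts are descriptions. The larger class lay on the TNF side: 3048 features (43.8% of all, 72% of the 4232) differed from vehicle in both groups with the same sign, 1320 higher and 1728 lower. TNF differed from vehicle in 59% of all features and from the combination in 24.8%. In 2662 of them combination and TNF did not differ past the threshold, which does not show that they were equal. Their medians were 0.342 in the combination beside 0.349 in TNF among the higher, and -0.298 beside -0.326 among the lower. A step back toward vehicle passed the test in 168, 111 higher and 57 lower. There the higher features had a median of 0.362 in the combination beside 0.649 in TNF, and the lower -0.251 beside -0.478. A further step away passed in 218, with medians of 0.783 beside 0.389 among 99 higher and -0.581 beside -0.285 among 119 lower. Of these 218, 148 differed from vehicle by at least 0.5.

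Another 958 features (13.8%) differed between TNF and vehicle and not between combination and vehicle. For 496 of them combination and TNF differed, 342 that were higher in TNF and 154 that were lower. Those higher in TNF had a median of 0.303 in TNF and -0.114 in the combination, and those lower had -0.275 and 0.0256. A missed threshold does not show a return to vehicle. The 95% interval of the difference from vehicle lay within 1.2-fold for 235 of the 496 (47.4%), against 25.2% of all features, in a class that a missed call defines. For the other 462 of the 958, combination and TNF were not resolved either.

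A second group differed from vehicle in the combination while TNF missed the threshold. In 1079 features (15.5%) this was so, 660 higher and 419 lower. A missed call is no difference, so the test between combination and TNF was used to divide them. It passed for 617 (8.86% of all), with 443 higher and 174 lower in the combination than in vehicle. The count was 344 in numbers 1 to 11 alone and 81 under the test against a 1.2-fold difference. The higher ones had a median of 0.361 in the combination beside 0.0166 in TNF, and the lower -0.312 beside 0.00933. Differences from vehicle of 0.5 or more were seen in 71 and of 1 or more in 11.

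The 3 combination arrays that stood apart were not shifted up with this group. They were picked on a closely related reading, so the values that follow describe them. Features of the kind were chosen in one part of the numbers and read in the arrays of the other, as the median difference from the vehicle mean of their own part. Over the features chosen as higher, 18 combination arrays ran from 0.211 to 0.850. Arrays 4, 7 and 10 lay between -0.158 and -0.0891, and TNF arrays between -0.190 and 0.221. Over the features chosen as lower, the 18 arrays ran from -0.605 to -0.279 and the 3 arrays from -0.194 to -0.0905. Vehicle array 6 stood at -1.11 on the higher features, while the next vehicle array was at -0.0805. With vehicle array 6 left out of the choice and of the mean, the 18 arrays ran from 0.103 to 0.738 and the 3 arrays from -0.259 to -0.197 on the higher features. On the lower features they then ran from -0.673 to -0.106 and from -0.227 to -0.135, so the ranges overlapped there. On the line from vehicle to TNF these 3 arrays lay at 0.800 to 0.866, within the range of the others. Without them 4261 features differed between combination and vehicle. Those that differed from vehicle and from TNF without a TNF call numbered 670 rather than 617. What set these arrays apart was not tested, since the labels tie neither collection day nor passage to arrays.

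Few features passed both tests that place a feature past vehicle. For 105 (1.51%) the combination and TNF both differed from vehicle and lay on opposite sides of it, 28 above and 77 below. Those above had a median of 0.394 in the combination and -0.253 in TNF, and those below -0.228 and 0.269. The combination was 0.5 or more from vehicle for 9 of them and 1 or more for 0. A missed call does not show that a feature stopped at vehicle. The 342 features described above as higher in TNF had a combination median of -0.114, below vehicle but without a call. The 77 that ended below vehicle deviated together, with a median pairwise r of 0.479 over the arrays, against 0.109 for the 28 and -0.00618 over all features, so they are not independent features. That r was computed over all arrays and not repeated without vehicle array 6 or combination arrays 4, 7 and 10. The count rested on vehicle array 6: without it 215 features were past vehicle, 32 above and 183 below, and 89 of the 105 were among them. Without combination arrays 4, 7 and 10 it was 173. Past vehicle under the 4 other scalings and without vehicle arrays 6 and 17 were 34 of the 105, 13 above and 21 below.

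**Figure D4:**
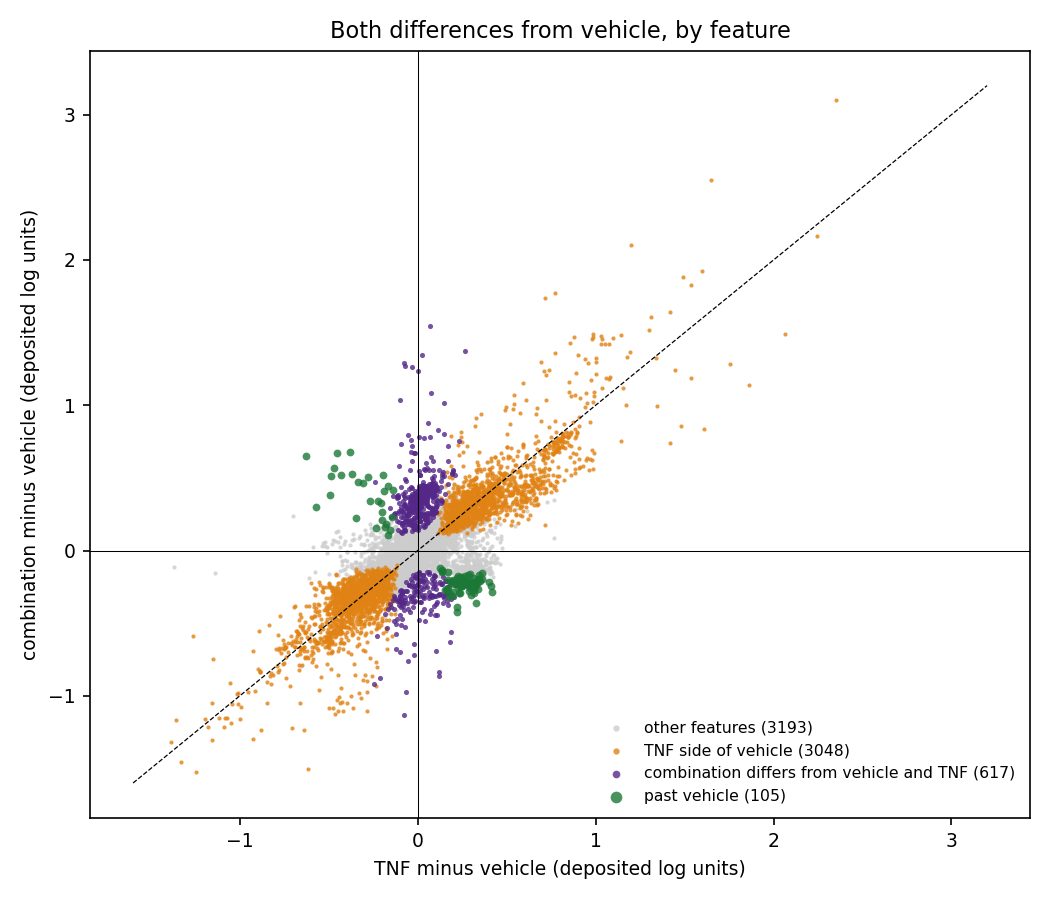
Difference from vehicle in TNF (x axis) and in the combination (y axis) for each of the 6963 features, in deposited log units, coloured by class; the dashed line marks equal differences. The 3048 features on the TNF side follow the diagonal and share vehicle arrays on both axes. The 617 that differ from vehicle and from TNF, with TNF not called against vehicle, spread along the vertical axis. The 105 past vehicle fill the opposed corners.

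The features furthest past vehicle, again picked for their values, were MSK05a4 and MSK14n15 above it. MSK05a4 ran from -1.24 to 0.39 (median 0.175) in vehicle, from -1.08 to 0.25 (median -0.33) in TNF and from 0.27 to 1.08 (median 0.69) in the combination. Here 18 of 21 combination arrays lay above every vehicle array, and vehicle arrays 6 and 17 were the lowest at -1.15 and -1.24. The combination differed from vehicle by 0.68 (SE 0.0994, limma adjusted p = 3.7e-08) and TNF by -0.38 (limma adjusted p = 0.000922). In numbers 1 to 11 alone the TNF difference missed the threshold (limma adjusted p = 0.0598).

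MSK14n15 had the tighter vehicle group, from -0.3 to 0.22 (median -0.03), with TNF from -0.74 to -0.14 (median -0.44) and the combination from 0.11 to 1.2 (median 0.78). Every TNF array (21 of 21) was under the mean of the vehicle group and every combination array (21 of 21) over it, 17 of them above the highest vehicle array. The differences from vehicle were 0.67 (SE 0.0705, limma adjusted p = 2.2e-12) in the combination and -0.46 (SE 0.0705, limma adjusted p = 1.61e-07) in TNF. It was among the 3 features that passed on both sides in a test against a 1.2-fold difference. The other 2, MSK30c12 with 0.65 and -0.63 and MSK24p10 with 0.51 and -0.49 in the combination and TNF, were named after their values were seen.

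Below vehicle, MSK41n7 had medians of -0.05 in vehicle (range -0.57 to 0.48), 0.11 in TNF (range -0.33 to 0.56) and -0.48 in the combination (range -1.06 to 0.07). The groups overlapped, and 7 of 21 combination arrays lay below every vehicle array. Its differences from vehicle were -0.42 (SE 0.0777, limma adjusted p = 4.96e-06) in the combination and 0.22 (limma adjusted p = 0.013) in TNF. The TNF call was lost at the stricter threshold of 0.01, and neither difference passed the test against a 1.2-fold difference.

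MSK27p4 lay at a median of 0.07 in vehicle (range -1.03 to 0.41), 0.27 in TNF (range -0.21 to 0.75) and -0.29 in the combination (range -1.07 to 0.11). The lowest vehicle value was that of array 6, and 20 of 21 combination arrays fell inside the vehicle range. The combination differed from vehicle by -0.39 (SE 0.0890, limma adjusted p = 0.000179). Its place past vehicle was fragile, because the TNF difference of 0.22 (limma adjusted p = 0.0308) lost its call without vehicle array 6 (0.17, limma adjusted p = 0.0699). It was also lost without TNF array 2 (limma adjusted p = 0.0525), without TNF array 18 (limma adjusted p = 0.0565), within either part of the numbers alone, with arrays scaled to one MAD (limma adjusted p = 0.0952) and after quantile normalization (limma adjusted p = 0.0885).

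Whether these classes hold in arrays that did not choose them was read from the other part of the numbers. Of 1579 features called higher in numbers 1 to 11, 1526 (96.6%) were also higher in numbers 12 upwards, with a median of 0.318. Of 1739 called lower, 1704 (98%) were lower again, with a median of -0.292. Over all features that were higher or lower in the first part whatever the test, the shares were 84.6% and 90.9%. Large differences were large again: 82 features called at least 1 higher in the first part had a median of 1.27 in the second, and 39 called at least 1 lower had -1.05. Chosen in the second part, 114 such higher features had a median of 0.856 in the first, and 41 lower ones -1.05.

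The same held for the features past vehicle. The first part gave 22, 12 above and 10 below, and in the second part all 22 again had the combination and TNF on opposite sides of vehicle. Over all features whatever the test, 503 of 3218 higher in the first part were higher again with TNF below vehicle. Of 3744 lower in the first part, 650 were lower again with TNF above vehicle. Medians for the 12 were 0.518 in the combination and -0.454 in TNF, and for the 10 they were -0.341 and 0.118. Past vehicle by both tests again were 8 of the 12 and 2 of the 10. The second part gave 27, of which 14 of 15 above and 12 of 12 below were opposed in the first part. Over all features chosen that way round, 487 of 3064 higher and 637 of 3899 lower ones were. For the 12 below, the combination median was only -0.160 beside 0.353 in TNF, and 2 of the 12 passed the test against vehicle in the combination. In each part vehicle noise pushes both differences the same way.

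Features on the TNF side that had stepped back in the first part lay between vehicle and TNF in their medians in the second, at 0.448 beside 0.692 in TNF for 52 higher features and -0.251 beside -0.498 for 14 lower. Passing the tests of this class again were 5 of the 52 and 4 of the 14. Of those that had gone further out, 48 of 50 higher features were again beyond TNF, at medians of 0.787 beside 0.407. Of 44 lower ones 41 were, at -0.770 beside -0.436. All tests of this class were passed again by 14 of the 50 and 15 of the 44. Over all features whatever the test, 1932 of 3218 higher in the first part were beyond TNF in the second, and 2137 of 3744 lower. In the first part 184 features were higher in the combination than in vehicle and TNF, with no call between TNF and vehicle. Of these 184, 175 were higher than vehicle and 176 higher than TNF in the second. Their medians there were 0.353 in the combination and 0.0148 in TNF. Another 340 features were raised in TNF against both other groups in the first part, with no call between combination and vehicle. Of these, 47 (13.8%) were above vehicle in the combination of the second part. Their medians there were -0.170 in the combination and 0.208 in TNF, and 51 passed as the same class. Of 80 such features lower in TNF, 31 (38.8%) were below vehicle, with medians of 0.0302 and -0.273. Chosen in the second part, 78 higher and 80 lower ones had combination medians of -0.045 and 0.0114 in the first.

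**Figure D5:**
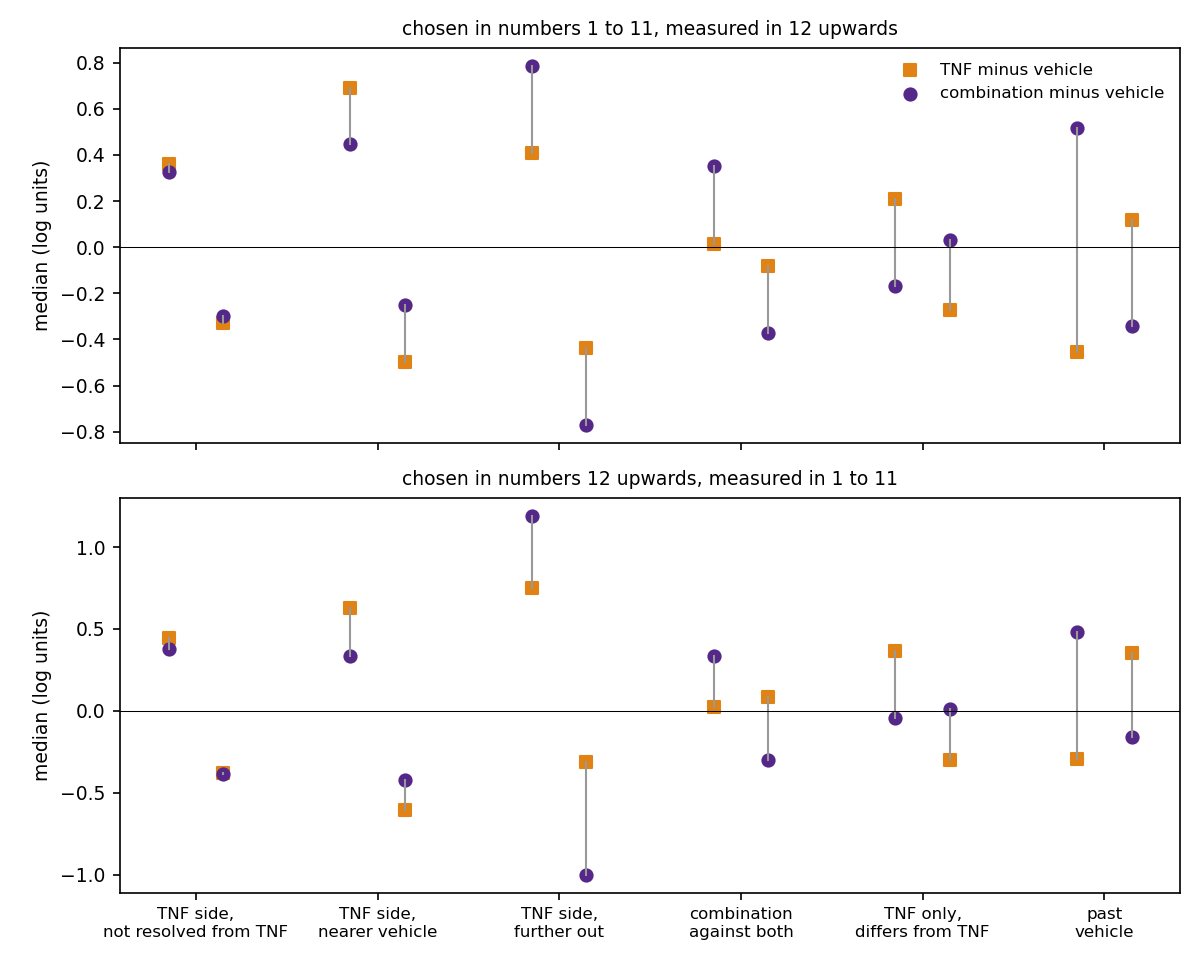
Median difference from vehicle (y axis, deposited log units) in TNF (squares) and the combination (circles) for features of 6 classes chosen in one part of the replicate numbers and measured in the other, with higher features left and lower features right within each class. Past-vehicle features keep the squares and circles on opposite sides of 0 in both panels. So do the features called in TNF only, whose circles lie nearer 0 than their squares. In the lower panel the lower features of the combination against both do so too.

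The called features were spread over the printed set, with differences by collection. MSK features, 6664 of the 6963, held 4044 calls (60.7%), and its 26 plates held between 53.4% and 65.6%. By well row the share ran from 52.8% in row p to 67.8% in row c. Of the 194 MMC features, 130 differed between combination and vehicle (67%), 25 higher and 105 lower, and 36.6% differed by at least 0.5, against 10.3% of all features. Their median difference was -0.22 in the combination and -0.27 in TNF, against -0.0458 and -0.0210 over all features. In numbers 1 to 11 and 12 upwards the combination median was -0.217 and -0.225. Of the MMC features 125 lay on the TNF side (64.4%, against 43.8% of all features). Past vehicle were 0, where the share of all features was 1.51%, and 2 differed from vehicle and from TNF without a TNF call, where it was 8.86%. The median MMC value of an array, relative to the median of that array, ran from -0.13 to 0.1 in vehicle and from -0.325 to -0.01 in the combination, with overlap. Of the 73 IRchip2 features 39 were called (53.4%), 21 higher and 18 lower, and of the 32 HuM features 19 (59.4%), 7 higher and 12 lower. Called with the groups 0.5 or more apart were 16.4% of the IRchip2 and 28.1% of the HuM features, also above the 10.3% of all. No source used here says what the MMC features represent.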

How the data were processed

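RNA was measured on 2-colour spotted arrays, 64 in all. The replicate numbers in the titles do not say whether each array held a separate culture. The deposited values are log ratios, taken here as log2, and the sources used here give no base, background correction or normalization for what the authors deposited. Per the labels, sample RNA (20 µg) carried Cy5 and the pool Cy3. Arrays were grouped by title. No value was missing and no 2 arrays were identical (0 pairs). All 6963 features were fitted in limma 3.58.1 (R 4.3.3; lmFit, eBayes) with a mean for each of the 3 groups and no block, over all 64 arrays, and p-values were two-sided and adjusted by Benjamini-Hochberg within a comparison at 0.05. The fit takes arrays of a group as independent. The labels name 6 collection days and 5 passages without tying them to arrays, so p-values may be too small. Named features were the 2 largest rises and 2 largest falls against vehicle, and the 2 highest and 2 lowest past vehicle. The members, classes, division of the numbers and named features were chosen with earlier results of these data known. Figures used Python 3.11.15 and matplotlib 3.10.9. Alternatives covered samples, blocks, scaling, well rows, group weights, thresholds and arrays left out. The number of arrays limits the precision.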

Additional observations from a re-analysis of the deposited data

Results flagged for a closer look

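Combination minus vehicle differed between replicate numbers 1 to 11 and 12 upwards for 18 features by an interaction term in limma at an adjusted p under 0.05, with 485 at an unadjusted p under 0.05. Of the 18, 12 had opposite signs in the parts, 6 were called over all arrays and 0 were past vehicle. None of the 8 named features was among them, each with an adjusted p of 0.995 in this limma test.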

How the results depend on the processing

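Under the test against a 1.2-fold difference, 782 features differed between combination and vehicle, with 433 on the TNF side, 346 called in the combination and not in TNF, and 3 past vehicle. Features past vehicle numbered 172 with the replicate number as a replicate block, 22 in numbers 1 to 11, 27 in numbers 12 upwards, 55 with a common MAD, 66 after quantile normalization, 172 with well-row means removed, 34 at an adjusted p under 0.01, 214 without vehicle arrays 6 and 17 and 173 without combination arrays 4, 7 and 10, the last chosen after seeing the data. Features on the TNF side fell to 1852 in numbers 12 upwards. In the other settings the count of features differing from vehicle ran from 2911 to 4623, and no feature changed the direction of its call (0). With the replicate block it was 4593. Same-numbered combination and vehicle arrays deviated together with r over 0.1 in 17 of 21 pairs (median r 0.295), and 6 correlated best with their own number. The labels state no pairing, so the main fit used none, and the replicate block is the alternative. Whether same-numbered arrays share a source was not tested, and these values do not show that they are independent. Leaving out each array gave 4141 to 4378 features differing from vehicle, 89 to 215 past it, 2956 to 3160 on the TNF side, 1044 to 1146 called in the combination and not in TNF, and positions of 0.846 to 0.882. Of 944 values of named features over 79 settings, 928 kept sign and call, 16 lost the call and 0 turned sign. Most settings leave out a single array, and the features were picked for their differences in these arrays, which favours a large share kept. All 16 lost calls fell on MSK05a4, MSK41n7 and MSK27p4, which were named as past vehicle. Signal over background is unknown.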
